A study of Mus musculus with 6 samples.

Results

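The genes described here are the Wnt pathway genes of mouse skin: the secreted ligands, their receptors, the secreted inhibitors, the R-spondins with their Lgr receptors, and beta-catenin with its transcription factors and feedback targets. They were chosen by name, as protein-coding genes with a Wnt, Fzd, Sfrp, Dkk or Rspo symbol followed by a number, plus 13 named genes from Wif1 to Ctnnb1. This gave 54 genes of the 54146 gene IDs in the files. Total RNA of skin was sequenced in 3 mice under chronic restraint stress (CRS), in which an animal is repeatedly confined, and in 3 control mice (CON), after 12 weeks. The sources used here do not give the sex, age, strain or body site of the mice.

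Wnt proteins are secreted signals that bind Frizzled receptors together with the co-receptors Lrp5 or Lrp6. In the canonical branch the signal keeps beta-catenin from being degraded, and beta-catenin then switches on genes together with TCF/LEF factors bound to DNA. In skin, canonical Wnt signalling is needed to form hair follicles and to start a new phase of hair growth, and secreted inhibitors such as Wif1, the Dkk and the Sfrp proteins hold it back.

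Expression was given as FPKM, fragments scaled by gene length and library size, from libraries of 13.3 to 25.7 M fragments. A pair of libraries stood apart. CON replicate 1 held 15.3% of its fragments in mitochondrial genes, against at most 4.19% in the other libraries, and it had Xist at 2.80 FPKM, against 0.0221 to 0.168 FPKM in the others, beside Y-linked Ddx3y at 22.5 FPKM. Whether that library came from 1 mouse alone could not be settled, which bears on n = 3 for CON. CRS replicate 2 differed by gene length: genes of over 8 kb lay 0.77 above the 6-library mean on the log2 scale and genes under 1 kb lay 1.18 below it. CRS replicates 1 and 3 ran the opposite way, at -0.43 and -0.67 for genes of over 8 kb. CRS replicate 3 was also low as a whole, with a median deviation of -0.34 over all genes tested. No listed marker of 9 cell types was at 0 in any library, with 1 hair shaft keratin not matched, and markers of epidermal keratinocytes had a summed level of 2381 to 3050 FPKM in CRS and 1988 to 2278 FPKM in CON. Summed levels were 5942 to 11368 FPKM in CRS and 1936 to 6295 FPKM in CON for hair shaft keratins. For genes of the hair matrix and cell division they were 120.3 to 211.6 FPKM in CRS and 208.9 to 253.7 FPKM in CON. They were 39.4 to 48.9 and 42.6 to 72.1 FPKM for dermal papilla markers in CRS and in CON, 223.6 to 317.1 and 291.1 to 369.8 FPKM for follicle stem cells, 803 to 1274 and 233.9 to 1277 FPKM for dermal fibroblasts, 487 to 2590 and 1594 to 13990 FPKM for skeletal muscle, 262.9 to 504.2 and 231.2 to 403.3 FPKM for adipocytes, and 172.7 to 202.1 and 257.1 to 294.7 FPKM for melanocytes. Log2 fold changes were under 0 for 9 of 9 hair matrix, 8 of 8 skeletal muscle and 5 of 5 melanocyte markers. They were under 0 for 7 of 8 dermal papilla, 4 of 5 follicle stem cell and 3 of 5 adipocyte markers. For dermal fibroblasts, hair shaft and keratinocytes the counts were 1 of 6, 1 of 9 and 0 of 7, against 67.8% of all genes. The part of these markers in the results below was not tested.

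In the skin of CRS mice, the Wnt inhibitor gene Wif1 and the R-spondin gene Rspo3 had log2 fold changes of -1.18 and -1.07 against CON mice, and every CRS value of both genes lay below every CON value. The ligand gene Wnt6 was separated in the same way by a smaller difference (limma unadjusted p = 0.198). Such separation held for 3 of 50 members, or 6%, near the 5.19% of all genes. The transcription factor gene Lef1 had a log2 fold change of -0.99, with overlapping groups. For 31 of 50 members CRS replicate 2 was the highest of all libraries, where it was for 29.2% of all genes. The same held for 39 of 57 other genes of the pathway, described below. For 20 and 18 of the 50, CRS replicates 1 and 3 were the lowest, where they were for 5831 and 7505 of all 28389 genes. No member passed the threshold of adjusted p under 0.05 with limma across all 28389 genes tested, 0 being higher and 0 lower, and no other gene did (0% of all genes in either direction). At an unadjusted p under 0.05 limma gave 723 genes, 2.55% of those tested. Limma voom on recovered fragments gave 0 genes past the adjusted threshold and 556 at that p, 1.96% of those tested. Skin is a mixture, and fewer cells of a type and less RNA per cell cannot be told apart in these data.

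Of the 54 members, 50 passed the filter of a mean of 0.1 FPKM. At an unadjusted p under 0.05 with limma, 2 of these 50 were lower, Wif1 and Rspo3, and 0 higher, where 1.63% of all genes were lower and 0.919% higher. The CRS values lay below all CON values in 3 of 50 members and above them in 0, where the shares over all genes were 5.19% and 1.65%. Of the 50, 40 had a log2 fold change under 0, against 67.8% of all genes. The median over the members was -0.35, where the median over all genes was -0.20. Relative to all genes the members' median was -0.15, and it was 0.15 without CRS replicate 1, -0.52 without CRS replicate 2 and 0.02 without CRS replicate 3. Median-ratio scaling brought the median of all genes to 0.0040 and that of the members to -0.14, with 31 of 50 members under 0 against 49.6% of all genes.

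**Figure D1:**
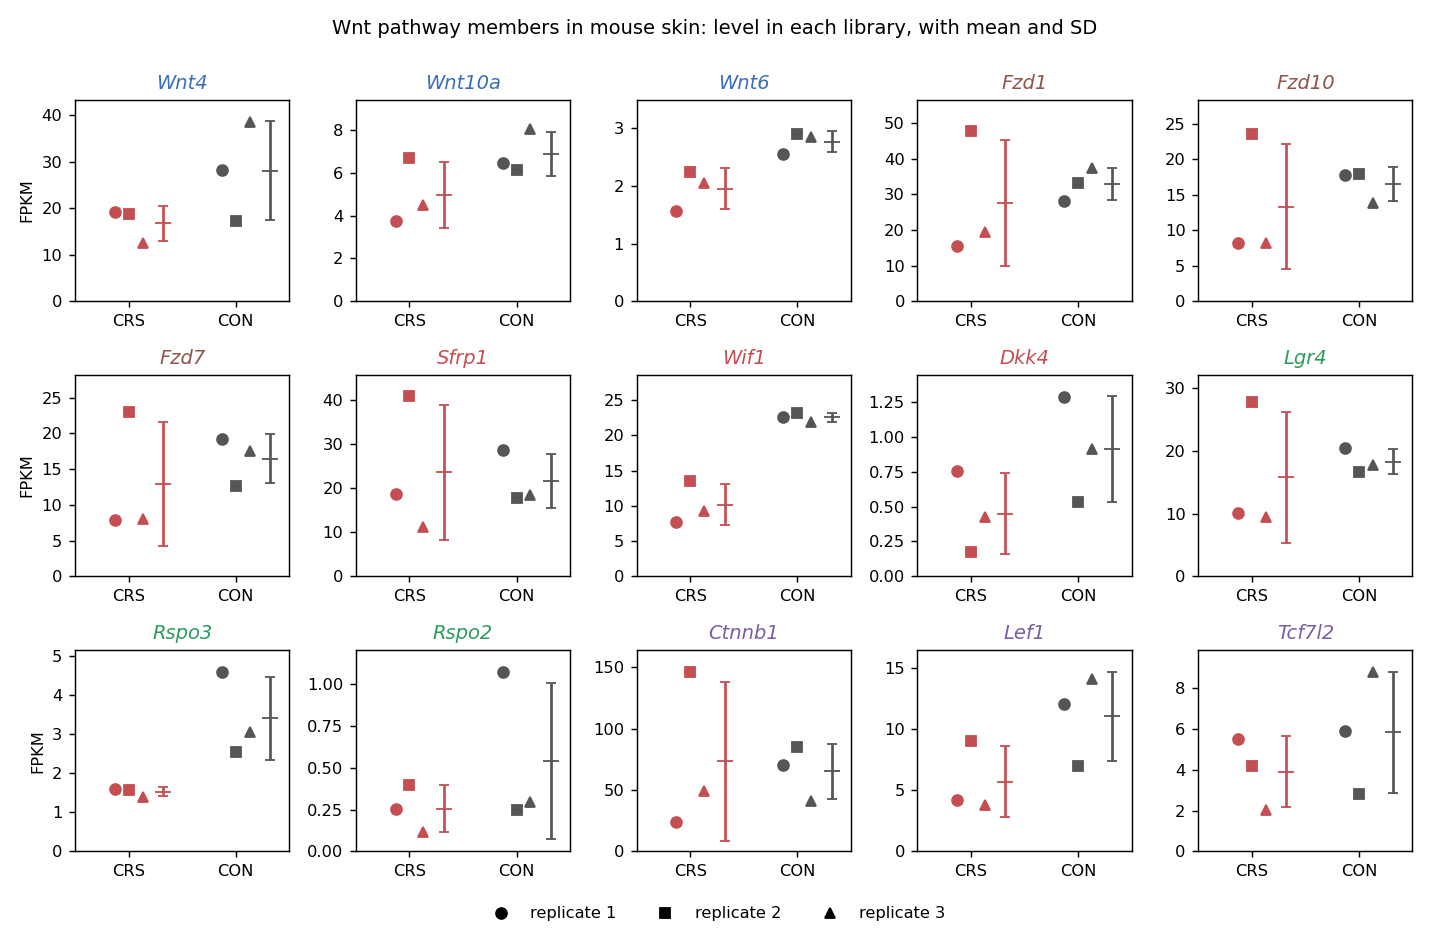
Level in FPKM of the 15 members given in full, in each CRS library (red) and each CON library (grey), with the group mean and SD (n = 3) at the right of each group. Wif1, Rspo3 and Wnt6 have no overlap between the groups, while CRS replicate 2 (square) is the highest library for Fzd1, Fzd7, Fzd10, Sfrp1, Lgr4 and Ctnnb1.

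Wif1 encodes Wnt inhibitory factor 1, a secreted protein that binds Wnt proteins outside the cell. Its level was 7.78, 13.5 and 9.30 FPKM in CRS replicates 1 to 3, against 22.6, 23.2 and 21.95 FPKM in CON replicates 1 to 3. The CON mice lay within a narrow range, and the highest CRS value, that of replicate 2, was well below it. The means were 10.2 ± 2.96 FPKM in CRS and 22.6 ± 0.603 FPKM in CON (SD, n = 3), from 363 to 1120 fragments per library. The log2 fold change was -1.18 (SE 0.31, limma unadjusted p = 0.00448, adjusted p = 0.9999), and the exact two-sided permutation p was 0.1, the smallest that 3 against 3 values allow. With each library left out in turn it lay between -1.40, without CRS replicate 2, and -1.004, without CRS replicate 1. By unadjusted p Wif1 ranked 35 among the 28389 genes tested, none of which passed the adjusted threshold.

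Rspo3 encodes R-spondin 3, a secreted protein that strengthens Wnt signalling by keeping Frizzled receptors on the cell surface. It stood at 1.60, 1.58 and 1.40 FPKM in CRS mice, against 4.60, 2.55 and 3.07 FPKM in CON mice. Here the CRS mice were the narrow group, and CRS replicate 2 did not stand out. The log2 fold change was -1.07 (SE 0.38, limma unadjusted p = 0.0222, adjusted p = 0.9999; exact permutation p = 0.1), from 95 to 269 fragments per library. Without CON replicate 1, the highest library, it was -0.83.

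Lef1 encodes a TCF/LEF factor that is itself switched on by Wnt signalling and is strongly made in the hair matrix and dermal papilla. It stood at 4.23, 9.07 and 3.82 FPKM in CRS mice, against 12.1, 6.96 and 14.1 FPKM in CON mice. Replicate 2 of CRS lay above replicate 2 of CON, so the groups overlapped. The means were 5.71 ± 2.92 FPKM in CRS and 11.1 ± 3.69 FPKM in CON (SD, n = 3), with a log2 fold change of -0.99 (SE 0.44, limma unadjusted p = 0.0508, adjusted p = 0.9999; exact permutation p = 0.2). After a correction for gene length, added after the data were seen, the groups did not overlap for Lef1 and the log2 fold change was -0.78.

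The start regions of Wif1, Lef1 and Axin2 are shown because Wif1 and Lef1 had the lowest p of their classes and Axin2 is the standard feedback target of beta-catenin. Each is the 300 bases of a RefSeq promoter window on GRCm38.p6, from 250 before to 50 after the start, 5′ to 3′ on the plus strand. Capitals mark the TCF/LEF core letters CTTTGA on either strand, which read TCAAAG on the other. The table holds 4 windows for Lef1, of which the most upstream and the most downstream are shown, the downstream one because it alone of the 4 holds the letters.
Wif1 at chr10:121033754-121034053: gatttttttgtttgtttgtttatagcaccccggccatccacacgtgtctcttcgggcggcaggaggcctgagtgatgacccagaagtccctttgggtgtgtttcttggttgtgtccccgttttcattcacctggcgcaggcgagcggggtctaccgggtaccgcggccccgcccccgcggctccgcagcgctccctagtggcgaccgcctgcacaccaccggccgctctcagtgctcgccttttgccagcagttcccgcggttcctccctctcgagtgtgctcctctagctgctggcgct
Lef1 upstream at chr3:131110047-131110346: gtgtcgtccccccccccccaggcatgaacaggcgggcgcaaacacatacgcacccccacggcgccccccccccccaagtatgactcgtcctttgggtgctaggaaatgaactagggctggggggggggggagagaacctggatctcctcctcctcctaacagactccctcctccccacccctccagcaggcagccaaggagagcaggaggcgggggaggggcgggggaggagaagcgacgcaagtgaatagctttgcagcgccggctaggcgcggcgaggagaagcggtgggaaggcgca
Lef1 internal at chr3:131156044-131156343: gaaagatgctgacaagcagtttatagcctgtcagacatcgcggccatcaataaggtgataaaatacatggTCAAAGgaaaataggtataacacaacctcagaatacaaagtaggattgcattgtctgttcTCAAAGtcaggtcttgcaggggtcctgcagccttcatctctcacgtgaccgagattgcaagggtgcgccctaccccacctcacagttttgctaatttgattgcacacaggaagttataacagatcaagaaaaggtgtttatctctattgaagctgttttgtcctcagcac
Axin2 at chr11:108920099-108920398: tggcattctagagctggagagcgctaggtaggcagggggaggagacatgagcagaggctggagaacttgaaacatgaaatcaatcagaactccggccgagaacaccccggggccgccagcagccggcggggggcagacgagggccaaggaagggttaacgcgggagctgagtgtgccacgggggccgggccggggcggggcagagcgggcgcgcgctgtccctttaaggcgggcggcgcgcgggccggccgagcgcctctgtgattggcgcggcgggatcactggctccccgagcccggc
The Lef1 internal window held the letters at positions 71 and 131, counted from its 5′ end, and the other 3 windows shown and the 2 Lef1 windows not shown held none. The table matched 37 of the 54 members with 46 windows, of which 5, or 10.9%, held these letters, against 16.0% of all 32851 windows. Expression was counted per gene, so the starts of Lef1 were not separated. The CpG count was 25 in the Wif1 window, 18 in Lef1 upstream, 5 in Lef1 internal and 31 in Axin2, against a median of 25.5 over the member windows and 7 over all windows.

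Among the ligands, 16 of 19 passed the filter and 12 of these had a log2 fold change under 0, with a median of -0.36, or -0.16 relative to all genes. Wnt4, a ligand made in the epidermis among other epithelia, was the most abundant ligand on the per-length FPKM scale. It stood at 19.1, 18.7 and 12.4 FPKM in CRS mice, against 28.2, 17.3 and 38.5 FPKM in CON mice, the groups overlapping at CON replicate 2. The log2 fold change was -0.69 (SE 0.37, limma unadjusted p = 0.101; exact permutation p = 0.3).

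Wnt6 and Wnt10a lie next to each other on chromosome 1, 6.19 kb apart in the annotation. Wnt6 stood at 1.57, 2.25 and 2.05 FPKM in CRS mice, against 2.56, 2.91 and 2.85 FPKM in CON mice, every CRS value being below every CON value. The log2 fold change was -0.50 (SE 0.36, limma unadjusted p = 0.198; exact permutation p = 0.1), from 66 to 127 fragments per library. Wnt10a, a ligand needed for normal hair, teeth and epidermis, stood at 3.73, 6.66 and 4.47 FPKM in CRS mice, against 6.43, 6.12 and 8.05 FPKM in CON mice. Only CRS replicate 2 of the Wnt10a values reached the CON range, and the log2 fold change was -0.49 (SE 0.34, limma unadjusted p = 0.181; exact permutation p = 0.3). Wnt3a and Wnt9a, 16.2 kb apart on chromosome 11, had similar means over the 6 libraries, 1.71 and 1.78 FPKM. Wnt3, 24.3 kb from Wnt9b, averaged 12.2 ± 0.178 FPKM in CRS and 12.3 ± 3.65 FPKM in CON (SD, n = 3), while Wnt9b was under the filter.

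Wnt10b, a canonical ligand active when hair growth starts, differed widely within both groups. It stood at 1.54, 7.54 and 1.28 FPKM in CRS mice, against 9.05, 3.70 and 3.21 FPKM in CON mice, so CRS replicate 2 and CON replicate 1 were far above the other mice of their groups. Its log2 fold change of -0.91 (SE 0.70) became -1.69 when CRS replicate 2 was left out and -0.45 when CON replicate 1 was. Wnt5a, the main non-canonical ligand, stood at 5.995, 19.1 and 5.50 FPKM in CRS mice, against 12.6, 9.51 and 14.7 FPKM in CON mice, with a log2 fold change of -0.49 (SE 0.49). For Wnt5a CRS replicate 2 was the highest and the other CRS mice the lowest libraries, and the fold change was -1.06 without CRS replicate 2 and -0.17 without CRS replicate 3. Wnt3a, a canonical ligand, had the highest fold change of the members, 0.50 (SE 0.47), with 1.66, 3.22 and 1.31 FPKM in CRS mice and 1.03, 1.34 and 1.66 FPKM in CON mice, and it was 0.14 without CRS replicate 2.

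For Wnt3 the log2 fold change was 0.02 (SE 0.31), for Wnt7b 0.10 (SE 0.40) and for Wnt5b 0.15 (SE 0.41). Wnt11, a non-canonical ligand at 7.88 ± 2.72 FPKM in CRS and 8.41 ± 2.89 FPKM in CON (SD, n = 3), was at -0.08 (SE 0.40), and Wnt9a at -0.22 (SE 0.49). The remaining ligands were below 1 FPKM, with log2 fold changes of -0.45 (SE 0.51) for Wnt2, -0.34 (SE 0.66) for Wnt2b, -0.40 (SE 0.65) for Wnt8a, -0.38 (SE 0.67) for Wnt8b and -0.17 (SE 0.60) for Wnt16. They rested on 1 to 70 fragments per library. Wnt1, Wnt7a and Wnt9b were under the filter, with at most 10 fragments in any library.

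**Figure D2:**
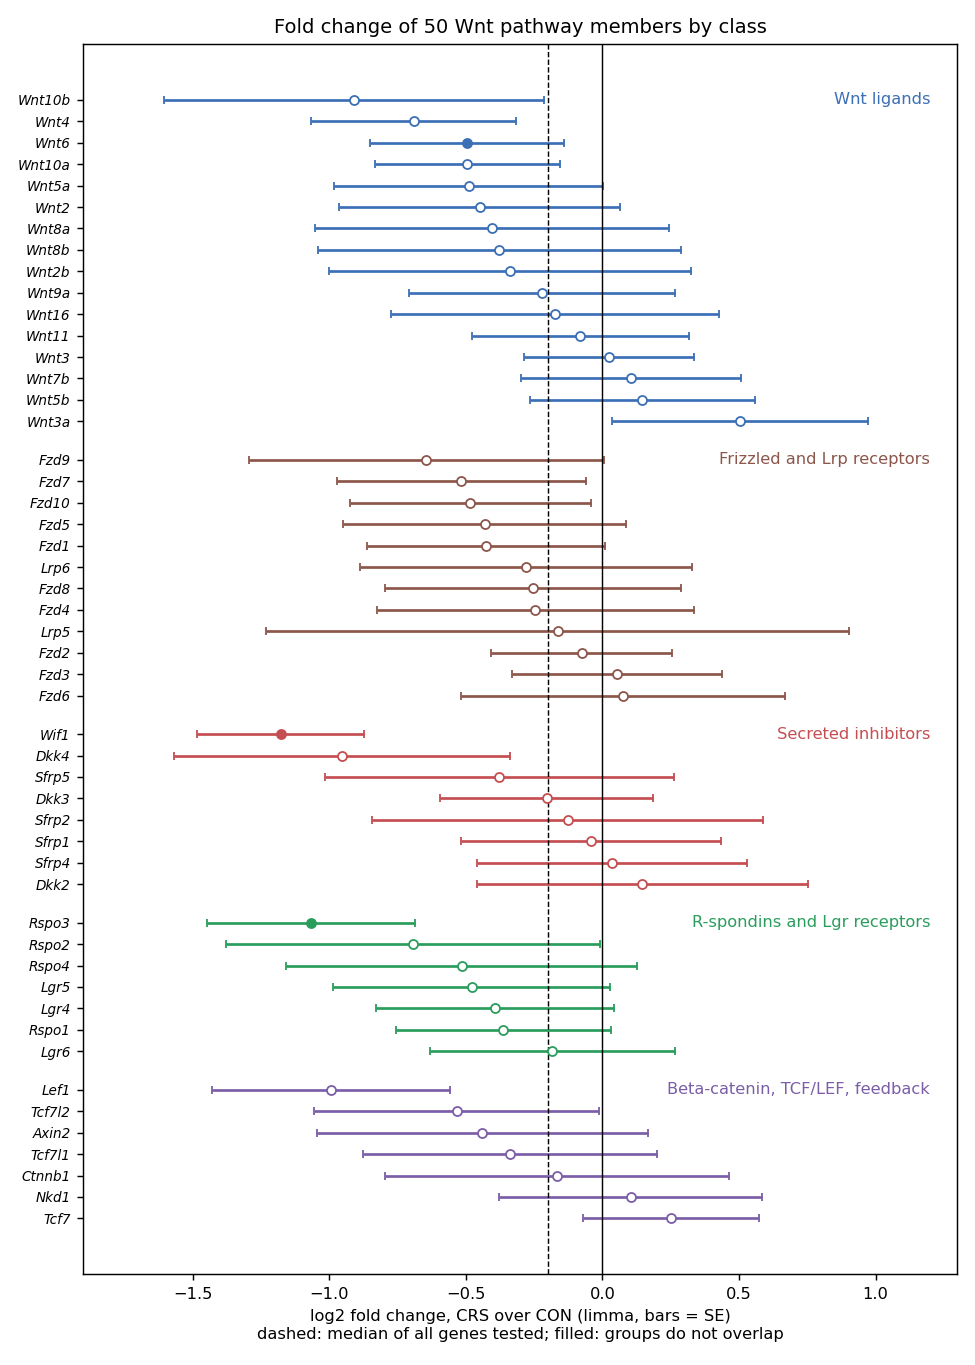
Log2 fold change of CRS over CON for the 50 members over the filter, with the SE from limma, grouped by class; the dashed line is the median of all genes at -0.20, and filled points have groups that do not overlap. Points run from -1.18 for Wif1 to 0.50 for Wnt3a, and 40 of 50 lie under 0.

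The receptors were all over the filter, 12 of 12, and 10 had a log2 fold change under 0, with a median of -0.27, or -0.07 relative to all genes. Fzd1 was the most abundant Frizzled, with 15.5, 47.8 and 19.4 FPKM in CRS mice, against 28.3, 33.1 and 37.5 FPKM in CON mice. Its log2 fold change was -0.43 (SE 0.44, limma unadjusted p = 0.357; exact permutation p = 0.4). The CON values lay between the lower CRS values and that of CRS replicate 2. Without CRS replicate 2 the fold change was -0.91, and without CRS replicate 1 it was -0.10.

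Fzd7 and Fzd10, Frizzled receptors linked to canonical signalling, gave the same picture as each other. Fzd7 stood at 7.81, 23.0 and 7.98 FPKM in CRS mice, against 19.2, 12.6 and 17.6 FPKM in CON mice (log2 fold change -0.52, SE 0.46, limma unadjusted p = 0.289; exact permutation p = 0.4). Fzd10 stood at 8.19, 23.5 and 8.25 FPKM in CRS mice, against 17.8, 17.95 and 13.8 FPKM in CON mice (log2 fold change -0.48, SE 0.44, limma unadjusted p = 0.305; exact permutation p = 0.4). For both genes CRS replicates 1 and 3 nearly coincided, below all CON mice, and CRS replicate 2 was above them all. Without CRS replicate 2 the fold changes were -1.03 for Fzd7 and -0.99 for Fzd10, and without CRS replicate 1 they were -0.25 and -0.23.

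Both co-receptor genes were highest in CRS replicate 2. Lrp5 stood at 0.342, 8.93 and 0.469 FPKM in CRS mice, against 2.13, 1.42 and 0.842 FPKM in CON mice, a log2 fold change of -0.16 (SE 1.07) that was -1.55 without CRS replicate 2. Lrp6 stood at 3.18, 16.1 and 3.25 FPKM in CRS mice, against 8.30, 5.59 and 6.55 FPKM in CON mice, with -0.28 (SE 0.61). The merged exon lengths of Lrp5 and Lrp6 in the annotation were 9738 and 13672 nt, and long genes as a whole were high in CRS replicate 2. After the length correction the log2 fold changes were 0.05 (SE 0.82) for Lrp5 and -0.06 (SE 0.31) for Lrp6. The part of gene length in the values of these 2 genes was not tested. The log2 fold changes of the other Frizzled genes were -0.43 (SE 0.52) for Fzd5, -0.24 (SE 0.58) for Fzd4, -0.08 (SE 0.33) for Fzd2, 0.05 (SE 0.38) for Fzd3, -0.26 (SE 0.54) for Fzd8, 0.07 (SE 0.59) for Fzd6 and -0.64 (SE 0.65) for Fzd9. Of these, Fzd6 and Fzd9 were below 1 FPKM.

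Of the secreted inhibitors, 8 of 9 passed the filter and 6 had a log2 fold change under 0, with a median of -0.17, or 0.03 relative to all genes; the median was 0.059 with median-ratio scaling, 0.039 without CRS replicate 1 and 0.051 without CRS replicate 3. Sfrp1, a secreted Frizzled-related protein that captures Wnt, was the most abundant by mean FPKM. It stood at 18.8, 40.8 and 11.3 FPKM in CRS mice, against 28.7, 17.8 and 18.5 FPKM in CON mice, with a log2 fold change of -0.043 (SE 0.48, limma unadjusted p = 0.931; exact permutation p = 1). The CRS values enclosed the CON values. Dkk4, which blocks Lrp co-receptors, stood at 0.751, 0.177 and 0.422 FPKM in CRS mice, against 1.29, 0.534 and 0.916 FPKM in CON mice. Its log2 fold change was -0.95 (SE 0.61, limma unadjusted p = 0.158; exact permutation p = 0.2), from only 6 to 32 fragments per library, and the groups overlapped at CON replicate 2.

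Dkk3, a divergent Dkk protein, averaged 8.32 ± 4.40 FPKM in CRS and 8.83 ± 0.414 FPKM in CON (SD, n = 3), with a log2 fold change of -0.20 (SE 0.39). Dkk2 was at 0.15 (SE 0.61), Sfrp2 at -0.13 (SE 0.72), Sfrp4 at 0.04 (SE 0.49) and Sfrp5 at -0.38 (SE 0.64). Sfrp2 reached 4.15 FPKM in CRS replicate 2, against 0.580 and 0.663 FPKM in the other CRS mice and 1.08 to 1.49 FPKM in CON mice. Dkk1, the best known Lrp blocker, was under the filter with at most 2 fragments, and was listed at 0 in all libraries but CON replicate 3.

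The R-spondins and the Lgr receptors they bind were all over the filter, and 7 of 7 had a log2 fold change under 0, with a median of -0.48, or -0.28 relative to all genes. That class median was -0.25 without CRS replicate 1, -0.97 without CRS replicate 2 and -0.17 without CON replicate 1. Relative to all genes it was then 0.0081, -0.76 and -0.0027 in that order. Under the length correction, Lgr6 was at 0.037 and 6 of 7 were under 0, and median-ratio scaling also turned Lgr6, to 0.046, as did leaving out CRS replicate 3, to 0.16. Lgr4, the most abundant, stood at 10.1, 27.8 and 9.43 FPKM in CRS mice, against 20.5, 16.6 and 17.8 FPKM in CON mice (log2 fold change -0.39, SE 0.44, limma unadjusted p = 0.393; exact permutation p = 0.4). For Lgr4 it was -0.89 without CRS replicate 2 and -0.12 without CRS replicate 3. Lgr5, a stem cell marker of the hair follicle, was at -0.48 (SE 0.51) and Lgr6, found in stem cells above the bulge, at -0.18 (SE 0.45).

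Rspo2 stood at 0.254, 0.395 and 0.116 FPKM in CRS mice, against 1.08, 0.245 and 0.294 FPKM in CON mice. CON replicate 1 was far above all others. The log2 fold change of -0.69 (SE 0.68, limma unadjusted p = 0.340; exact permutation p = 0.5) was -0.13 without it. Rspo4, an R-spondin needed for nails in humans, had a value of -0.52 (SE 0.64) that became -0.17 when CON replicate 1 was left out, and -1.18 when CRS replicate 2 was. Rspo1 was at -0.36 (SE 0.39), and -0.075 without CON replicate 1. CON replicate 1 was the highest library for Rspo1, Rspo2 and Rspo3, and it was the library with 13990 FPKM of skeletal muscle markers and 233.9 FPKM of dermal fibroblast markers. The part of these levels in the R-spondin values was not tested, and Rspo3 alone of the 4 had CRS values below all CON values also without that library.

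Of beta-catenin, the TCF/LEF genes and the feedback targets, 5 of 7 had a log2 fold change under 0, with a median of -0.34, or -0.14 relative to all genes. Ctnnb1, which encodes beta-catenin and also serves cell adhesion, was the most abundant member of all. It stood at 24.0, 146.6 and 49.4 FPKM in CRS mice, against 70.5, 84.9 and 40.96 FPKM in CON mice, with a log2 fold change of -0.17 (SE 0.63, limma unadjusted p = 0.799; exact permutation p = 1). The CRS values enclosed the CON values. Tcf7l2 stood at 5.50, 4.18 and 2.05 FPKM in CRS mice, against 5.90, 2.83 and 8.77 FPKM in CON mice (log2 fold change -0.53, SE 0.52, limma unadjusted p = 0.335; exact permutation p = 0.4). Leaving out CON replicate 2 gave -0.97 for Tcf7l2, and leaving out CRS replicate 3 gave -0.14.

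The TCF/LEF genes differed in the sign of their fold changes. Tcf7 had a log2 fold change of 0.25 (SE 0.32), with 14.3, 23.5 and 21.1 FPKM in CRS mice and 12.8, 17.8 and 18.4 FPKM in CON mice, whereas Lef1 was at -0.99 and Tcf7l1, a repressor type of TCF, at -0.34 (SE 0.54). The difference between these genes was not tested. Of the feedback targets, Axin2, a scaffold that promotes beta-catenin degradation, stood at 2.12, 9.72 and 1.92 FPKM in CRS mice, against 4.95, 3.60 and 5.79 FPKM in CON mice, a log2 fold change of -0.44 (SE 0.61). It was -1.18 without CRS replicate 2, and -0.036 without CRS replicate 3. Nkd1, an inhibitor induced by Wnt, was at 0.10 (SE 0.48), with 2.05, 5.83 and 3.88 FPKM in CRS mice and 2.62, 5.36 and 2.66 FPKM in CON mice.

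Other genes of the pathway, 61 in number, were taken by their role in the pathway, and 57 passed the filter. None passed the adjusted threshold with limma, 46 of 57 had a log2 fold change under 0, and the median was -0.23, close to that of all genes. At an unadjusted p under 0.05, 1 of 57 was lower, Ryk, and 0 higher, a share of 1.75% near the 1.63% of all genes. The CRS values lay below all CON values for 2 of 57, Ryk and Sostdc1, which is 3.51% against 5.19% of all genes. Ryk, a Wnt co-receptor of the receptor tyrosine kinase family, stood at 27.3, 29.1 and 26.2 FPKM in CRS mice, against 41.2, 40.6 and 46.6 FPKM in CON mice, a log2 fold change of -0.64 (SE 0.27, limma unadjusted p = 0.0450; exact permutation p = 0.1). Both groups were narrow and apart from each other, and CRS replicate 2 did not differ from the other CRS mice as it did for the Frizzled genes. Sostdc1, an inhibitor of Wnt and Bmp signals named here after its values were seen, also had all CRS values below all CON values, at 16.8 to 21.3 FPKM in CRS and 22.4 to 24.3 FPKM in CON.

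Tnfrsf19, a receptor induced by Wnt, had 8.99, 22.3 and 8.92 FPKM in CRS mice, against 30.1, 16.6 and 20.8 FPKM in CON mice (log2 fold change -0.84, SE 0.43). Pygo2, a beta-catenin co-factor, had 6.83, 11.7 and 7.52 FPKM in CRS mice, against 12.7, 10.7 and 17.2 FPKM in CON mice (-0.65, SE 0.34). Frzb, a secreted Frizzled-related inhibitor whose symbol the rule did not take, had 0.241, 1.04 and 0.270 FPKM in CRS mice, against 2.25, 0.697 and 0.907 FPKM in CON mice (-1.24, SE 0.68). In all of these, CRS replicate 2 was within the CON range and the other CRS mice were below it.

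The spread within CRS was shared by many members and not by all: for some, as Rspo3, CRS replicate 2 did not stand out. CRS replicate 2 was the highest library for 31 of 50 members, 62.0%, where it was the highest for 29.2% of all genes. It was also the highest for 39 of the 57 other pathway genes, or 68.4%, so this was not particular to the members. CRS replicates 1 and 3 were the lowest for 20 and 18 members, where they were for 5831 and 7505 of all 28389 genes. CRS replicate 3 was the highest for none of the 50, where it was for 5.44% of all genes. The median deviation of the members from their 6-library mean was -0.53, 0.60 and -0.55 on the log2 scale in CRS replicates 1 to 3, against 0.33, 0.02 and 0.19 in CON replicates 1 to 3. Over all genes tested it was -0.00067, -0.014 and -0.34 in CRS replicates 1 to 3. In CON replicates 1 to 3 it was 0.19, -0.0051 and 0.11 over all genes. CRS replicate 3 was thus low for all genes as well. In the CRS mice the deviations were -0.77, 0.76 and -0.58 for the receptors and -0.73, 0.73 and -0.95 for the beta-catenin and TCF/LEF class. Of the receptors, 11 of 12 were highest in CRS replicate 2. Of the ligands, 6 of 16 were highest there.

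**Figure D3:**
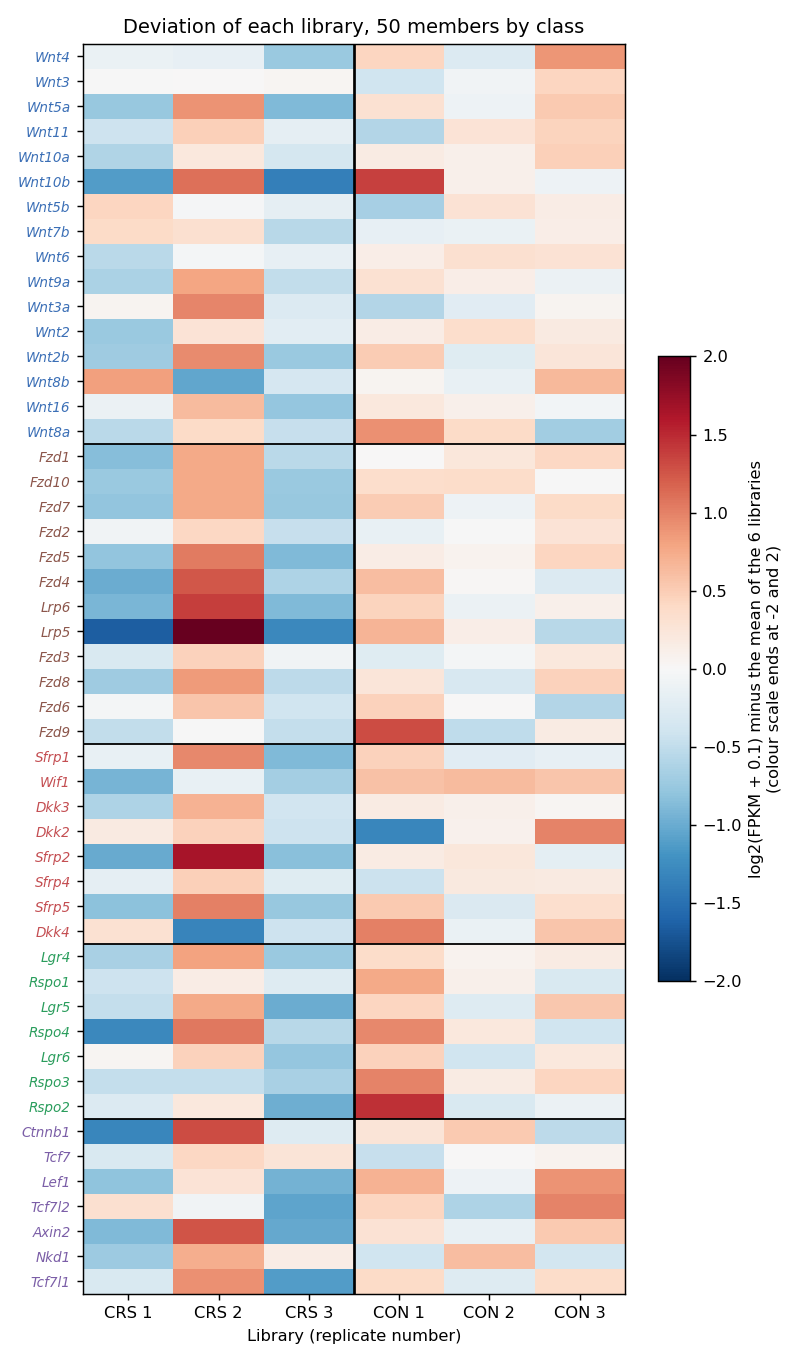
Deviation of log2(FPKM + 0.1) from the mean of the 6 libraries for each of the 50 members, CRS libraries left of the line and CON libraries right of it. The column of CRS replicate 2 is red for most rows and those of CRS replicates 1 and 3 are blue, while Wif1 and Rspo3 are blue or pale in all CRS libraries.

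Gene length went with this spread. The members over the filter had a median length of 4158 nt, against 2333 nt for all genes tested. These sets are unlike, as all members are protein-coding. The 28389 genes tested outnumber the 21906 protein-coding genes of the series and so hold other gene types. The same holds for every share over all genes given here. Over all genes of at least 1 FPKM, the median deviation in CRS replicate 2 was -1.18 under 1 kb, 0.19 at 2 to 4 kb and 0.56 at 4 to 8 kb. In CRS replicate 1 it was 0.76, -0.27 and -0.40, and in CRS replicate 3 it was 0.19, -0.21 and -0.48. When each library was corrected for this trend, the members' median deviation was -0.30, 0.25 and -0.24 in the CRS mice, against 0.16, -0.06 and 0.12 in the CON mice. That of all genes was 0.12, 0.028 and -0.083 in the CRS mice, against 0.054, -0.084 and 0.015 in the CON mice. CRS replicate 2 was then the highest library for 20 of 50 members, or 40%, where it was for 25.3% of all genes. Of the 50, 30 had a log2 fold change under 0, where the share over all genes was 48%. In the corrected values the CRS mice lay below all CON mice for 4 of 50 members and above them for 0, where the shares over all genes were 3.36% and 5.49%. The 4 were Wif1 (log2 fold change -0.97), Rspo3 (-0.84), Lef1 (-0.78) and Wnt6 (-0.29).

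**Figure D4:**
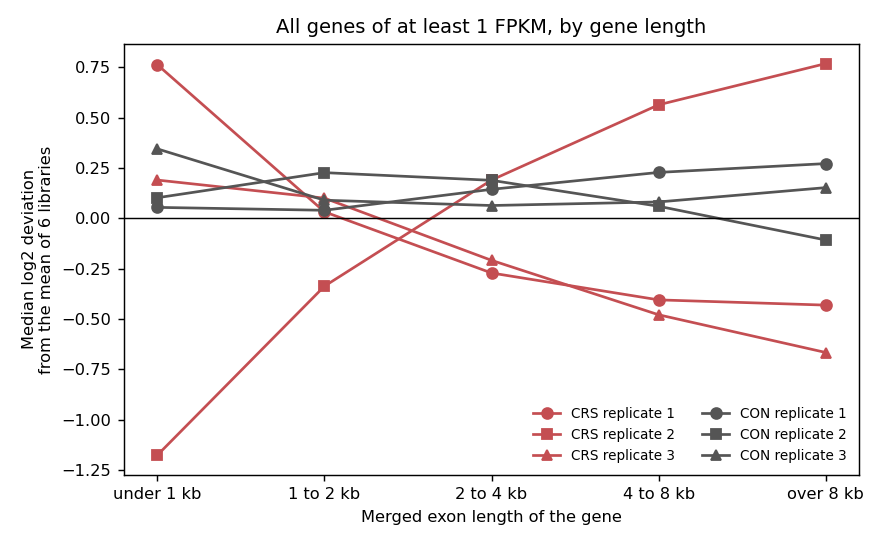
Median deviation from the 6-library mean (log2) of all genes of at least 1 FPKM, in 5 ranges of merged exon length, for each CRS library (red) and each CON library (grey). CRS replicate 2 runs from -1.18 under 1 kb to 0.77 over 8 kb, and CRS replicates 1 and 3 run the opposite way, to -0.43 and -0.67 over 8 kb.

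Without CRS replicate 2, 45 of 50 members had a log2 fold change under 0, where 61.7% of all genes did, and the members' median was -0.74, or -0.52 relative to all genes. The 2 remaining CRS mice lay below all CON mice for 27 of 50 members, where this held for 27.4% of all genes and for 37 of the 57 other pathway genes. At an unadjusted p under 0.05 with limma, 19 of 50 were lower, where 14.6% of all genes and 27 of the 57 other pathway genes were. The smallest adjusted p of any member was then 0.192, and 0 passed. Genes of over 8 kb had a median deviation of -0.43 and -0.67 in CRS replicates 1 and 3, against 0.27, -0.11 and 0.15 in CON replicates 1 to 3. The part of gene length in these counts was not tested. Without CON replicate 1, 44 of 50 were under 0, where 65.6% of all genes were, 3 of 50 had CRS values below all CON values, where 7.11% of all genes did, and the median was -0.17, or -0.01 relative to all genes. Leaving out either other CRS mouse moved the members the other way. Without CRS replicate 1, 32 of 50 were under 0, where 68.6% of all genes were, and the median was -0.10, above that of all genes. There the CRS values lay below all CON values for 5 of 50, where they did for 15.5% of all genes. Without CRS replicate 3, 31 of 50 were under 0, where 57.2% of all genes were, and the median was -0.072. There 3 of 50 had CRS values below all CON values, where 7.19% of all genes did. The position of the members relative to all genes changed with the CRS mice included. Without CON replicate 2, 39 of 50 were under 0, where 68.6% of all genes were, and 8 of 50 had CRS values below all CON values, where 12% of all genes did. Without both CRS replicate 2 and CON replicate 1, 49 of 50 were under 0 and 31 of 50 lay below all CON mice, against 61.1% and 31.1% of all genes.

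**Figure D5:**
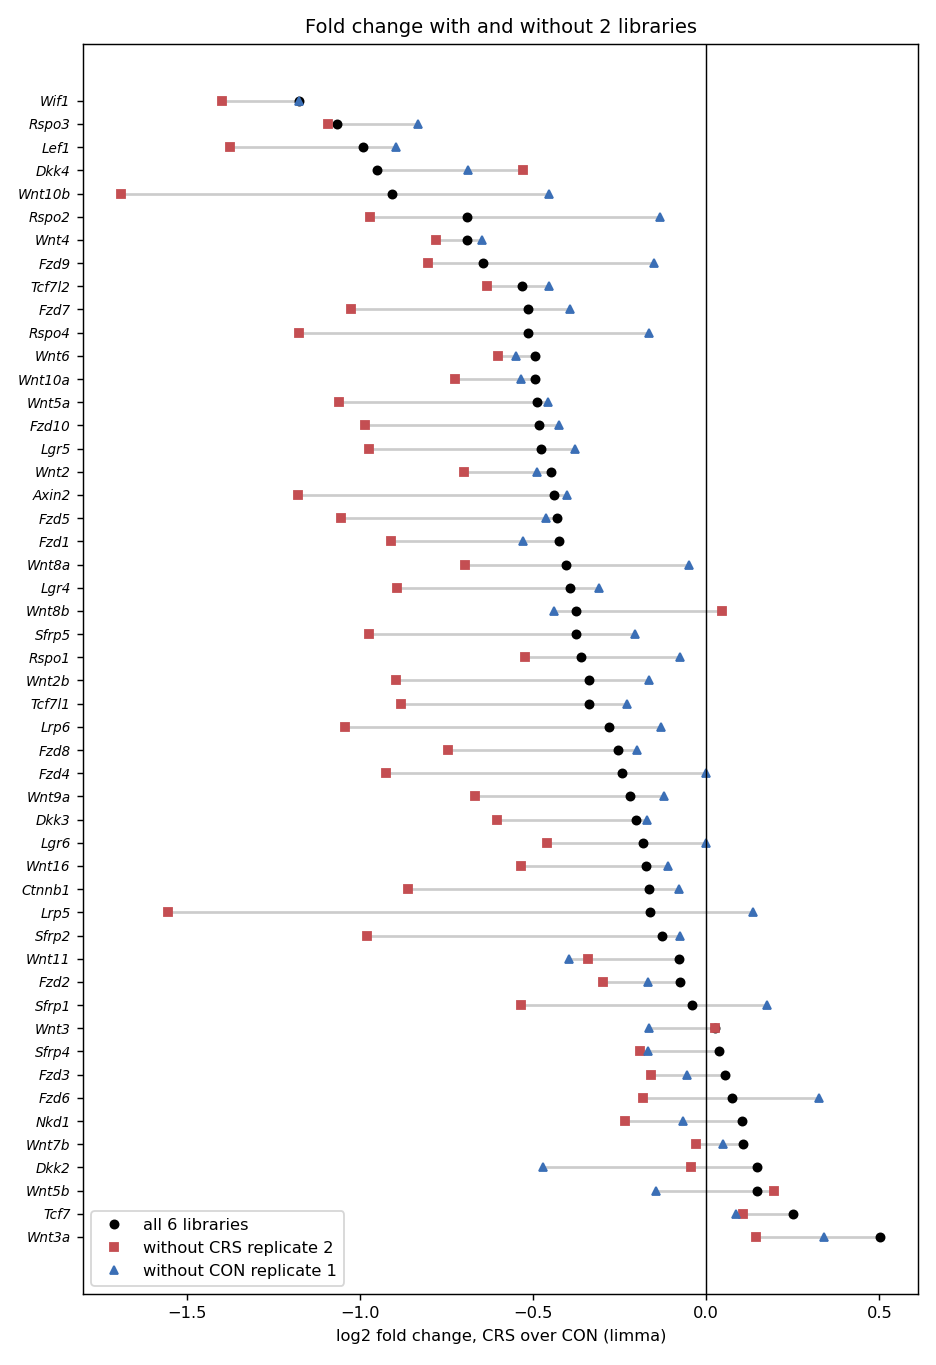
Log2 fold change of CRS over CON for each of the 50 members with all 6 libraries (black), without CRS replicate 2 (red) and without CON replicate 1 (blue). Wif1 and Rspo3 stay between -1.40 and -0.83 in all 3, while Lrp5 runs from -1.55 to 0.14.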

How the data were processed

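Skin RNA of 3 CRS and 3 CON mice was extracted with Trizol and made into Illumina libraries, per the labels' protocols. The deposited values are FPKM, 1 file per library, made by the authors; the submitters' processing notes name HISAT2 and GRCm39. How fragments were counted, with which annotation and whether by strand, is not given in the sources used here. GENCODE M21 (GRCm38) gave symbols, gene types, exon lengths and distances between genes, and it held 54079 of the 54146 IDs. The builds differ, so the coordinates of the promoter windows and these distances apply to GRCm38. FPKM times length fell within 0.05 of a whole number of fragments for 98.1% to 98.3% of values up to 100 fragments, which gave the depths and fragment counts. Without strand, fragments of overlapping opposite-strand genes may be counted together; exon overlap touched 11 members and at most 17.8% of a member's length.

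The scale was log2(FPKM + 0.1), on which the change of low genes is understated. The 28389 genes averaging 0.1 FPKM or more were tested for CRS against CON, two-sided, by limma 3.58.1 in R 4.3.3 (trended prior variance), and p-values were adjusted over all of them by Benjamini-Hochberg. No gene list was tested. Exact permutation tests of 3 against 3 were two-sided. Each library was taken as 1 mouse, since the design text gives 3 mice a group; for CON replicate 1, which held Xist beside Y-linked RNA, this could not be settled. The members and lists were chosen with earlier results of these data known. In each class the most abundant member and the 2 of lowest p were given in full, with any other member of at least 1 FPKM whose groups did not overlap; of the other pathway genes, the 4 of lowest p were named. On simulated data with the spreads of the 28389 genes, CRS against CON, limma recovered 0% of 50 genes shifted by a log2 change of 1, 10% of those shifted by 2, 32% by 3 and 66% by 5. Alternatives were other pseudocounts, filters, scaling, variance models, array weights, a replicate block, limma voom on the recovered fragments, libraries left out and, added after the data were seen, a length correction (lowess, span 0.3). Python 3.11.15 with pandas 2.3.3 made the tables, and matplotlib 3.10.9 the figures.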

Additional observations from a re-analysis of the deposited data

How the results depend on the processing

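No gene and no member passed the adjusted threshold under any alternative run with limma (0 higher and 0 lower), including limma voom, with 723 genes at an unadjusted p under 0.05 in the reported fit and 556 with voom. The lowest adjusted p of a member was 0.0898, with array weights, which gave CRS replicate 2 a weight of 0.162 and CRS replicate 3 a weight of 5.42. Of the 50 members, 27 kept their sign with each library left out in turn and 25 under every alternative that gave them a value, the filter of 1 FPKM giving one to 39 of the 50; Wif1, Rspo3, Lef1, Wnt4, Wnt6 and Wnt10a were among these 25. The count of members with CRS values below all CON values was 3 and ranged from 3 to 27 with each library left out: 5 (15.5% of all genes) without CRS replicate 1, 27 (27.4% of all genes) without CRS replicate 2 and 8 (12% of all genes) without CON replicate 2. It was 31 (31.1% of all genes) without CON replicate 1 and CRS replicate 2. The class medians that moved by more than the spread between libraries were receptors (-0.92 to -0.012 with each library left out), inhibitors (-0.76 with array weights and -0.62 without CON replicate 1 and CRS replicate 2), the effector class (-1.13 with array weights) and the other pathway genes (-0.74 to -0.0091 with each library left out). With each library left out the other class medians ran from -0.63 to -0.11 for ligands, -0.57 to 0.051 for inhibitors, -0.97 to -0.17 for R-spondins and Lgr receptors and -0.86 to -0.036 for the effector class. The replicate block left the fold changes as they were (members' median -0.35) and 1 of 50 members at an unadjusted p under 0.05. After each gene's group mean was subtracted, the deviations of same-numbered CRS and CON libraries correlated at -0.30, -0.043 and 0.097 over 14371 genes. Same-numbered libraries were therefore not taken as pairs, and the block changed no adjusted call. For several members the direction turned, and the cause was not tested. With median-ratio scaling the values were Wnt11 0.16, Wnt9a 0.0028, Fzd2 0.16, Lrp5 0.043, Sfrp1 0.20, Dkk3 0.033, Sfrp2 0.086, Lgr6 0.046 and Ctnnb1 0.074. With the length correction they were Wnt11 0.15, Wnt9a 0.0070, Wnt16 0.058, Fzd2 0.16, Lrp5 0.053, Sfrp1 0.19, Dkk3 0.024, Sfrp2 0.079, Lgr6 0.037 and Ctnnb1 0.063. With a pseudocount of 1 they were Lrp5 0.16 and Sfrp2 0.035. With array weights they were Wnt5b -0.090, Wnt7b -0.39, Fzd3 -0.071, Fzd6 -0.26, Dkk2 -0.36 and Sfrp4 -0.24. Without CON replicate 1 and CRS replicate 2 they were Wnt3 -0.17, Wnt5b -0.10, Wnt7b -0.086, Wnt3a -0.021, Fzd3 -0.27, Dkk2 -0.66, Sfrp4 -0.40, Tcf7 -0.060 and Nkd1 -0.41. The lowest and highest values with each library left out, for the 23 members whose direction turned, were Wnt3 -0.17 and 0.25, Wnt11 -0.40 and 0.12, Wnt5b -0.15 and 0.33, Wnt7b -0.063 and 0.41, Wnt9a -0.67 and 0.039, Wnt8b -0.88 and 0.047, Wnt16 -0.54 and 0.17, Fzd2 -0.30 and 0.13, Fzd4 -0.93 and 0.19, Lrp6 -1.04 and 0.11, Lrp5 -1.55 and 0.62, Fzd3 -0.16 and 0.22, Fzd8 -0.75 and 0.038, Fzd6 -0.20 and 0.32, Sfrp1 -0.54 and 0.39, Dkk3 -0.60 and 0.057, Dkk2 -0.47 and 0.68, Sfrp2 -0.98 and 0.34, Sfrp4 -0.19 and 0.17, Lgr6 -0.46 and 0.16, Ctnnb1 -0.86 and 0.44, Nkd1 -0.24 and 0.50, and Tcf7l1 -0.88 and 0.14. Of members that kept their sign and moved by over 1.5 times, the lowest and highest values were, beside those in the results, Wnt4 -1.0001 and -0.42, Wnt10a -0.73 and -0.32, Wnt2 -0.70 and -0.19, Wnt2b -0.90 and -0.053, Wnt8a -0.85 and -0.05, Fzd5 -1.06 and -0.10, Fzd9 -1.06 and -0.15, Sfrp5 -0.97 and -0.062, Dkk4 -1.34 and -0.53, Rspo1 -0.61 and -0.075, Lgr5 -0.97 and -0.10, Rspo4 -1.18 and -0.00066, Rspo2 -1.02 and -0.13 and Tcf7 0.085 and 0.46. A library left out leaves 1 group with 2 mice. Members below 1 FPKM rest on few fragments, at most 121 in a library.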
